A study of Homo sapiens with 6 samples.

Results

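The vascular endothelial growth factor (VEGF) ligands and their receptors were followed in SAS, a human cell line from an oral squamous cell carcinoma. The members were taken by gene symbol in the platform annotation of the array: the ligand genes VEGFA, VEGFB, VEGFC and PGF, the receptor tyrosine kinase genes FLT1, KDR and FLT4, and the co-receptor genes NRP1 and NRP2. These are 9 of the 19775 genes named on the array, and they were covered by 33 probe sets. A probe set is a group of short probes read together as 1 signal. Of the 33, 17 passed a filter on low signal and represented 7 of the 9 genes, since no probe set of KDR or FLT4 passed. A gene that passed only through a condition in which it was high would have had to differ, so counts over the 7 genes tested are not counts over all members.

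RNA was measured on 6 Affymetrix arrays in 4 conditions. The conditions were siRNA against CYLD with an ALK5 inhibitor (1 array), control siRNA with the inhibitor (1 array), siRNA against CYLD with DMSO (2 arrays) and control siRNA with DMSO (2 arrays), called siCYLD and siCtrl below. That arrays without inhibitor received DMSO follows from the treatment protocol, not from their titles. All cells were transfected, grown for 2 days and then kept without serum for 48 h with inhibitor or DMSO. CYLD is a deubiquitinase that restrains NF-κB signalling, and ALK5 is the type I receptor for TGF-β. The labels do not name the inhibitor compound, give no dose, list a single CYLD siRNA without a rescue, and give no statement that the duplicates came from separate cultures. Off-target effects of the siRNA and loss of CYLD therefore cannot be told apart. The p-values reflect the spread of these arrays alone, and that spread may be technical.

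VEGF ligands are secreted dimers of a cystine-knot fold. VEGFA acts mainly through KDR (VEGFR2) and also binds FLT1 (VEGFR1), VEGFB and PGF bind FLT1, and VEGFC acts through FLT4 (VEGFR3), the receptor of lymphatic endothelium, and through KDR once it has been cut by proteases. The neuropilins NRP1 and NRP2 bind both VEGF ligands and class 3 semaphorins and present them to kinase receptors or plexins. In squamous carcinomas the ligands are made largely by the tumour cells, while the kinase receptors are known chiefly from endothelium.

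The labels conflict for 2 arrays. By its source name, siCYLD replicate 1 would be a control, and siCtrl replicate 2 would be a CYLD knockdown. The grouping here is by title. CYLD itself had several probe sets. That with the largest fall, 221903_s_at (-2.21 with DMSO), read 71.1 in siCYLD with inhibitor, 421 in siCtrl with inhibitor, 77.2 and 125 in siCYLD and 485 and 550 in siCtrl. The brightest, 213295_at (-0.80), read 176 in siCYLD with inhibitor, 349 in siCtrl with inhibitor, 278 and 230 in siCYLD and 411 and 500 in siCtrl. Probe sets 39582_at and 221905_at differed by -1.24 and -0.70, and the rest were below the filter. The CYLD signals above the filter thus went with the titles. Duplicates correlated at 0.975 in siCYLD and 0.976 in siCtrl. The ratio of 3′ to 5′ signal of ACTB, a sign of RNA integrity and labelling, was 2.26 to 2.48 in the 3 siCYLD arrays and 3.21 to 3.67 in the 3 siCtrl arrays, while that of GAPDH overlapped (1.80 to 1.97 and 1.79 to 2.14). The ACTB ratio moved with the siRNA in the same way as the knockdown results below, and its part in them was not tested. In RNA from whole cultures, fewer cells with a transcript and less of it per cell cannot be told apart.

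With the CYLD siRNA, VEGFC rose 11.6-fold and NRP1 2.10-fold by mean signal, and none of the other 5 genes tested was called. KDR and FLT4 were not tested, and 1 NRP2 probe set was called in a separate fit over probe sets, as given below. Differences are given as log2 with a standard error, and the threshold for a call was an adjusted p of 0.05 (limma, Benjamini-Hochberg over 12935 genes). Called were 2 of 7 members, both higher, beside 21.3% of all genes called in either direction and 9.49% called higher. The exact test over 2 arrays against 2 cannot go below p = 0.333, so the calls rest on the model fitted across all genes.

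VEGFC, the lymphangiogenic ligand, was covered by 1 probe set. It had a signal of 13362 in siCYLD with inhibitor, 1646 in siCtrl with inhibitor, 11235 and 11983 in siCYLD and 1022 and 983 in siCtrl. All 3 siCYLD arrays stood far above all 3 siCtrl arrays. The log2 difference between siCYLD and siCtrl with DMSO was 3.51 ± 0.10 (adjusted p = 1.1e-10, limma, 2 arrays each), with a 95% interval of 3.30 to 3.72 and a ratio of mean signals of 11.6. By absolute difference it ranked 8 of 12935 genes. The inhibitor pair shares no array with that comparison. There the log2 difference was 3.01 and the ratio 8.12, with 1 array on each side and so no test.

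The VEGFC promoter is printed because its gene had the largest change among the members. Shown are the 250 bases before the RefSeq start on the minus strand (GRCh38.p14, chr4:176792923-176793172), with the single match to a core of NF-κB elements, GGG and CC with any 5 bases between them, in capitals.
VEGFC: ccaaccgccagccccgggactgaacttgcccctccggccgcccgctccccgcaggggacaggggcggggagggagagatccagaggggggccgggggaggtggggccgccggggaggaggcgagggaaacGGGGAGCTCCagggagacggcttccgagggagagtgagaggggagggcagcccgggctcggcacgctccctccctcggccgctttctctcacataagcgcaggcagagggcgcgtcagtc
The match lies 120 to 111 bases before the start, and 54.4% of 35116 RefSeq promoter windows of this length hold at least 1 on either strand. The GC box GGGCGG had 2 matches, in a window where 42.6% of promoters hold 1. No match was found to TGANTCA (AP-1, in 6.57% of promoters), to CAGAC (a SMAD element, in 38%) or to ACGTG (the hypoxia element core, in 18.5%), which says only that these letters are not in this window. Promoter windows were found for 6 of the 9 members, and not for VEGFA, FLT4 or NRP1. Counted on both strands, the NF-κB core had 8 matches in VEGFB, 7 in PGF over all its windows, 5 in KDR, 4 in NRP2 and 2 in FLT1. A link between matches and changes was not tested.

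NRP1 was the other member that rose. Its brightest probe set, 212298_at, read 1370 in siCYLD with inhibitor, 322 in siCtrl with inhibitor, 1339 and 1257 in siCYLD and 599 and 635 in siCtrl. Again the siCYLD arrays did not overlap the siCtrl arrays, and the siCtrl array with inhibitor was the lowest of the 6. The log2 difference with DMSO was 1.05 ± 0.12 (adjusted p = 5.3e-05, limma, 2 arrays each), and the ratio of mean signals was 2.10. In the inhibitor pair the difference was 2.04 and the ratio 4.26.

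A second NRP1 probe set above the filter, 210510_s_at, was dimmer, at 161 in siCYLD with inhibitor, 28.7 in siCtrl with inhibitor, 70.8 and 151 in siCYLD and 35.8 and 6.31 in siCtrl. All siCtrl arrays were below the filter level there, and the probe set passed only through the siCYLD conditions, so that its values are a description and no second test of the rise. Over 24537 probe sets the knockdown was called for 4 of 17 of the members, beside 16.8% of all, namely that of VEGFC, both of NRP1 and 1 of NRP2 (limma). The call of 210510_s_at among these 4 is set by the filter, so nothing is drawn from the count. The remaining 2 NRP1 probe sets stayed below the filter, with differences of 0.19 and 0.09. In the inhibitor pair as a whole, VEGFC and NRP1 were the 2 of 7 members past 2-fold, both higher, beside 6.73% of all genes (3.91% higher and 2.81% lower).

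**Figure D1:**
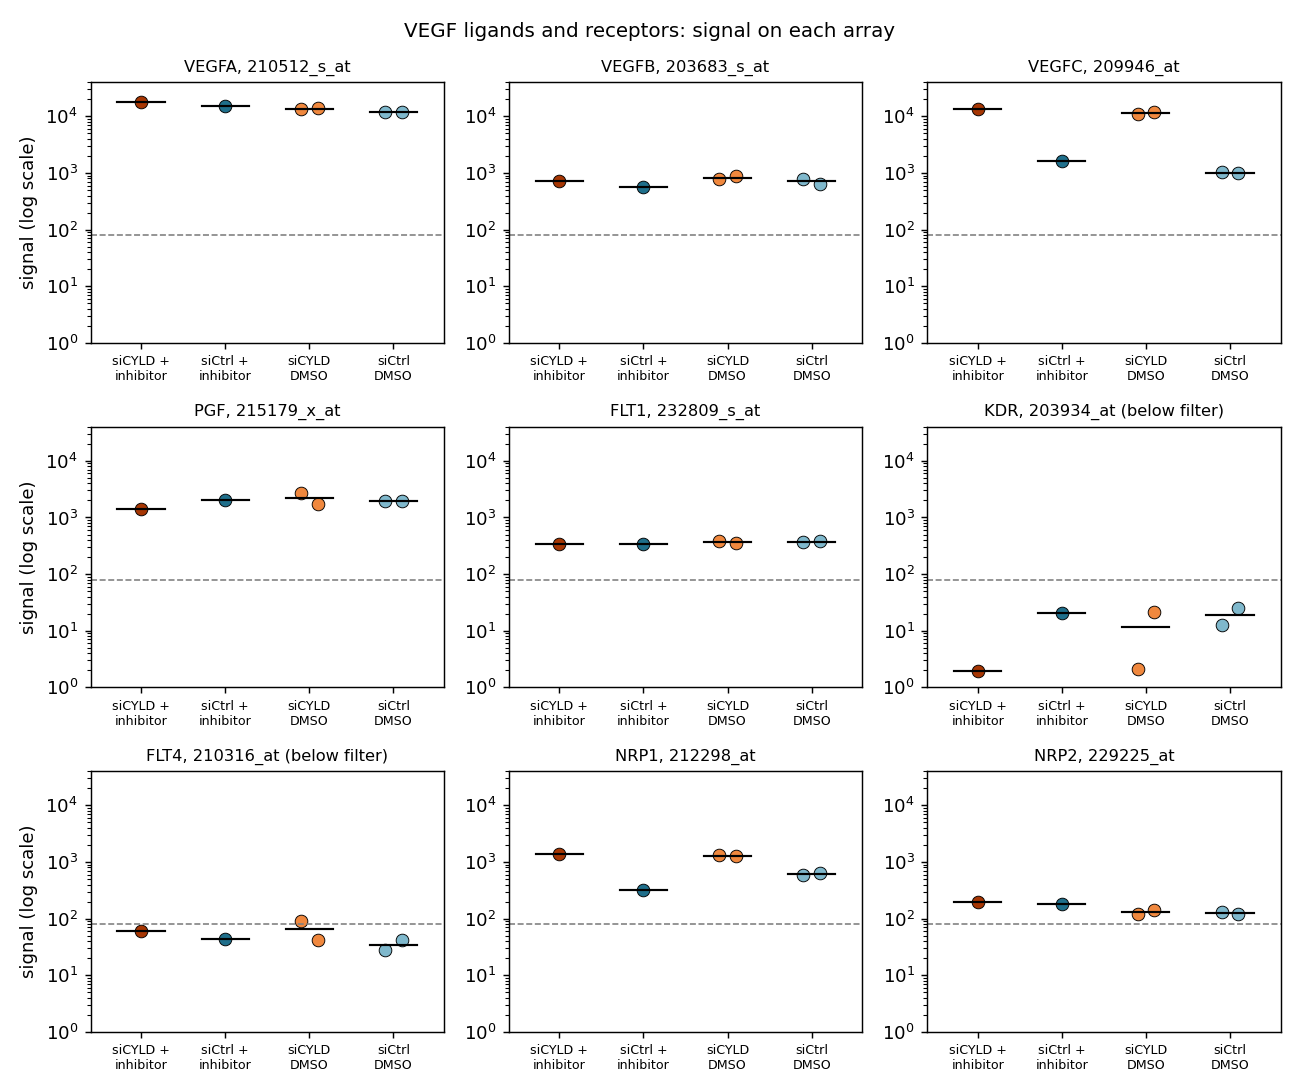
Signal (log axis) of 1 probe set per member on each of the 6 arrays, by condition: points are arrays, bars are condition means and the dashed line is the filter at a signal of 79.3. VEGFC and NRP1 separate siCYLD from siCtrl with and without inhibitor, whereas all KDR points lie below the line.

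The other ligands differed little between siCYLD and siCtrl. VEGFA, the main angiogenic ligand, read 13510 and 13937 in siCYLD and 12023 and 11815 in siCtrl on its brightest probe set. These arrays did not overlap, but the log2 difference of 0.20 ± 0.08 did not pass (adjusted p = 0.0879, limma). VEGFB, a ligand of FLT1, read 778 and 870 in siCYLD and 783 and 647 in siCtrl, which overlap (0.21 ± 0.14, adjusted p = 0.329, limma).

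PGF, the placental growth factor, had 2666 and 1749 in siCYLD and 1961 and 1946 in siCtrl on probe set 215179_x_at. The siCYLD duplicates lay on either side of the siCtrl pair (0.14 ± 0.16, adjusted p = 0.562, limma). The suffix _x_at marks probe sets whose probes may match other transcripts as well. The second PGF probe set, 209652_s_at, was below the filter on every array but 1, reading 61.3 and 79.5 in siCYLD and 4.88 and 32.7 in siCtrl, and was not tested.

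Among the kinase receptors, signals were low or near the floor in all conditions. FLT1 on its brightest probe set read 339 in siCYLD with inhibitor, 337 in siCtrl with inhibitor, 378 and 360 in siCYLD and 364 and 389 in siCtrl. The groups overlapped, and the difference of -0.03 ± 0.16 had a 95% interval of -0.37 to 0.31 (adjusted p = 0.921, limma). Of its 5 other probe sets only 204406_at passed the filter, with 95.9 in siCYLD with inhibitor, 43.4 in siCtrl with inhibitor, 124 and 76.3 in siCYLD and 83.6 and 81.0 in siCtrl. That probe set was called in none of the comparisons (lowest adjusted p = 0.339, limma over probe sets).

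KDR, the main signalling receptor for VEGFA, gave 1.95 in siCYLD with inhibitor, 20.6 in siCtrl with inhibitor, 2.07 and 21.0 in siCYLD and 12.5 and 25.5 in siCtrl. FLT4, the receptor for VEGFC, gave 60.0 in siCYLD with inhibitor, 43.8 in siCtrl with inhibitor, 89.1 and 42.4 in siCYLD and 27.8 and 41.1 in siCtrl on the brightest of its 3 probe sets. Only 1 of these arrays read above the filter level of 79.3, and its duplicate read less than the siCtrl array with inhibitor. No direction is drawn from signals at this level.

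Markers of endothelium were examined beside the receptors. Of 12 on the array, 5 passed the filter, and the summed signal of the 12 brightest probe sets was 1165 in siCYLD with inhibitor, 1150 in siCtrl with inhibitor, 742 and 694 in siCYLD and 554 and 563 in siCtrl. No marker was listed at 0, but CLDN5, TEK, EMCN, ERG, ESAM, LYVE1 and PROX1 were below the filter in every condition. The sum was higher with the inhibitor, where CDH5 (VE-cadherin) read 462 and 587 in siCYLD and siCtrl, against 5.83 to 63.0 with DMSO. VWF read 169 in both inhibitor arrays, against 25.0 to 71.4 with DMSO. The sum with DMSO was also higher in siCYLD, where TIE1 read 149 and 124, against 2.10 in both siCtrl arrays. Each of these 3 passed the filter only through the condition in which it was high, so a call of it is set by the filter and none is given. PECAM1 had 188 to 216 on all arrays. ROBO4, the remaining marker above the filter, was lower with inhibitor in siCtrl cells, at 23.3 against 96.6 and 91.2 with DMSO. In siCYLD cells ROBO4 read 99.9 with inhibitor, between the 81.4 and 128 with DMSO. The part of endothelial transcripts in the results on receptors was not tested.

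Markers of squamous epithelium summed to 56302 in siCYLD with inhibitor, 67275 in siCtrl with inhibitor, 55130 and 55404 in siCYLD and 55596 and 55089 in siCtrl over 7 genes. EPCAM, CDH1 and SFN were bright, while KRT14 read 62.3 to 148 and KRT16 at most 13.9, so these 2 squamous keratins were weak or near the floor. KRT5, a basal keratin, rose with the inhibitor across both siRNAs by 2.98 (adjusted p = 5.3e-06, limma), and DSG3 fell with the knockdown by 0.64 (adjusted p = 0.00224, limma). The part of a shift in epithelial state in the results was not tested. Fibroblast markers summed to 409 to 670 and leukocyte markers to 251 to 412 over all arrays, and none of either list was called for the knockdown (limma, lowest adjusted p = 0.173, and 0 at an unadjusted p under 0.05).

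NRP2, the neuropilin that binds VEGFC, gave different answers on different probe sets. Its brightest on average, 229225_at, represented the gene and read 197 in siCYLD with inhibitor, 179 in siCtrl with inhibitor, 122 and 141 in siCYLD and 131 and 122 in siCtrl. Both inhibitor arrays were above all DMSO arrays, while siCYLD and siCtrl overlapped (knockdown difference 0.05 ± 0.24, adjusted p = 0.918, limma).

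Probe set 225566_at, by contrast, read 223 in siCYLD with inhibitor, 188 in siCtrl with inhibitor, 105 and 118 in siCYLD and 37.6 and 53.8 in siCtrl. The siCYLD arrays with DMSO were above the siCtrl arrays with DMSO, and both inhibitor arrays were above all of these. The inhibitor arrays differed by 0.23 on the log2 scale, less than the gap of 0.38 between the siCtrl duplicates. The siCtrl arrays with DMSO were below the filter level, so differences against them are against a dim signal. The knockdown difference was 1.06 (adjusted p = 0.0224) and the inhibitor difference in siCtrl cells 1.74 (adjusted p = 0.0118, limma over probe sets). The 4 other NRP2 probe sets above the filter had knockdown differences of -0.13 to 0.34 and were not called. The 5 below it ranged from -0.31 to 0.84. Which probe sets read which NRP2 transcripts is not given in the tables used here.

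**Figure D2:**
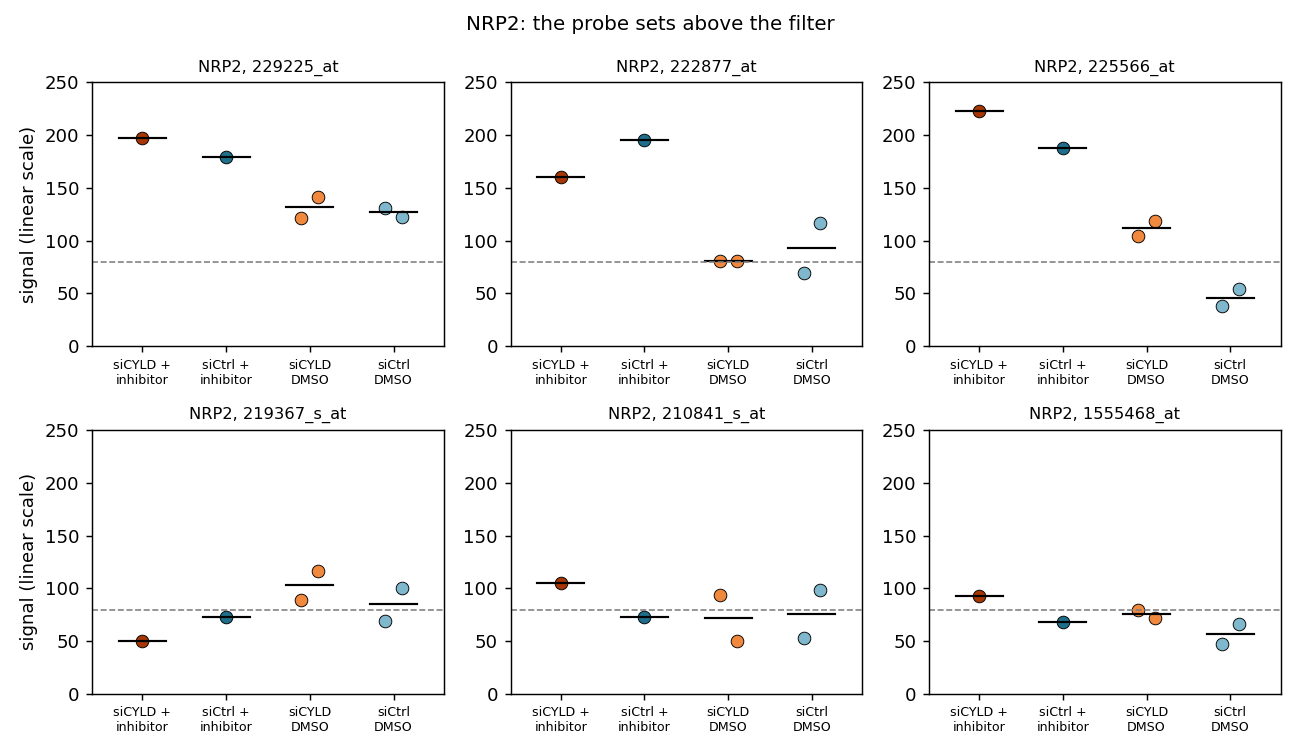
Signal (linear axis) of the 6 NRP2 probe sets above the filter on each array, by condition: points are arrays, bars are condition means and the dashed line is the filter at 79.3. In 229225_at, 222877_at and 225566_at both inhibitor arrays lie above all DMSO arrays, and 225566_at also separates siCYLD from siCtrl with DMSO.

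VEGFA was higher by a small amount with the ALK5 inhibitor in both siRNA backgrounds, each with 1 inhibitor array. VEGFA read 18223 in siCYLD with inhibitor against 13510 and 13937 in siCYLD with DMSO, and 15194 in siCtrl with inhibitor against 12023 and 11815 in siCtrl with DMSO. Both inhibitor arrays exceeded all 4 DMSO arrays. Across both siRNAs, from 2 inhibitor arrays and 4 DMSO arrays, the log2 difference was 0.38 ± 0.08 (adjusted p = 0.00656, limma). It was 0.41 ± 0.10 in siCYLD (adjusted p = 0.00956) and 0.35 ± 0.10 in siCtrl cells (adjusted p = 0.0401, limma, 1 array against 2). In the fit over probe sets the same probe set kept its siCYLD call (adjusted p = 0.0137) and lost its siCtrl call (adjusted p = 0.0547, limma). Of 13 alternatives, 10 kept the siCYLD call and 8 the siCtrl call. The siCtrl value missed the threshold without siCtrl replicate 1 (0.36, adjusted p = 0.0524) and without siCtrl replicate 2 (0.34, adjusted p = 0.0547, limma).

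Of the 4 VEGFA probe sets, 210512_s_at and 212171_x_at were called for the inhibitor across both siRNAs over all probe sets, 210513_s_at had an adjusted p of 0.0513 and 211527_x_at one of 0.792 (limma). Without both arrays of conflicting labels the gene's difference was 0.36 and was not called (adjusted p = 0.14, limma). For the inhibitor across both siRNAs 2 of 7 members were called, VEGFA and VEGFC, both higher, beside 20% of all genes (11.2% higher and 8.82% lower). Over probe sets it was called for 5 of 17, beside 15.2% of all.

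VEGFC with the inhibitor was higher in siCtrl cells, at 1646 against 1022 and 983 with DMSO, a difference of 0.71 ± 0.12 (adjusted p = 0.00252, limma, 1 array against 2). In siCYLD cells it read 13362 against 11235 and 11983, and the difference of 0.20 ± 0.12 did not pass (adjusted p = 0.245, 95% interval -0.05 to 0.46, limma). The inhibitor thus did not lower VEGFC in either background. The difference between the effects, -0.50 ± 0.17, was not called (adjusted p = 0.173, limma). Across both siRNAs the value was 0.45 ± 0.12 (adjusted p = 0.0212, limma), and this call was lost without siCYLD replicate 1 (0.47, adjusted p = 0.0546), siCtrl replicate 1 (0.43, adjusted p = 0.0612), siCtrl replicate 2 (0.41, adjusted p = 0.0571) or the siCtrl inhibitor array (0.20, adjusted p = 0.232).

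NRP1 fell with the inhibitor in siCtrl cells and not by the test in siCYLD cells. In siCtrl cells it read 322 with inhibitor against 599 and 635 with DMSO, a fall of 0.90 ± 0.15 on the log2 scale (adjusted p = 0.00275, limma, 1 array against 2). In siCYLD cells it read 1370 with inhibitor against 1339 and 1257 with DMSO, a difference of 0.08 ± 0.15 with a 95% interval of -0.25 to 0.41 (adjusted p = 0.757, limma). The knockdown by inhibitor interaction, the knockdown difference with inhibitor minus that with DMSO, was 0.98 ± 0.22 (adjusted p = 0.0382, limma). It was the only 1 of 7 members called for the interaction, beside 1.67% of all genes (0.982% higher and 0.688% lower). The fit gives each lone inhibitor array the spread seen in the duplicates.

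The interaction of NRP1 was lost in the fit over all 24537 probe sets (adjusted p = 0.0639, limma), where 0 of 17 probe sets of the members were called, beside 0.876% of all (1 higher and 2 lower at an unadjusted p under 0.05). The second NRP1 probe set gave an interaction of 0.16 and a difference of 0.39 with the inhibitor in siCtrl cells (adjusted p = 0.771, limma), both sides of which were below the filter level, so the fall with the inhibitor rests on 1 probe set. With the mean of both probe sets the interaction was 0.57 and not called (adjusted p = 0.604, limma).

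PGF and VEGFB had lower values with the inhibitor in parts of the data. PGF read 1421 in siCYLD with inhibitor against 2666 and 1749 with DMSO, a fall of 0.60 ± 0.19 on the log2 scale (adjusted p = 0.041, limma), and 2069 in siCtrl with inhibitor against 1961 and 1946. In the fit over probe sets the fall in siCYLD cells was not called (adjusted p = 0.0559, limma). The fall was as large as the gap of 0.60 between the siCYLD duplicates. Without siCYLD replicate 1 it was -0.30 and not called (adjusted p = 0.264), and without siCYLD replicate 2 it was -0.90. Without siCYLD replicate 2 PGF was also called for the knockdown (0.45, adjusted p = 0.0313) and the interaction (-0.98, adjusted p = 0.00321, limma), so that 1 duplicate decided each of these calls.

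VEGFB read 709 in siCYLD with inhibitor against 778 and 870, and 558 in siCtrl with inhibitor against 783 and 647. Both inhibitor arrays lay below the DMSO arrays of their own siRNA, and neither difference was called (-0.21, adjusted p = 0.421, and -0.34, adjusted p = 0.242, limma). NRP2 differed by 0.49 ± 0.20 across both siRNAs on its representing probe set (adjusted p = 0.113, limma), while 222877_at and 225566_at were called in the fit over probe sets (adjusted p of 0.0309 and 0.00883). FLT1 differed by -0.13 ± 0.14 (adjusted p = 0.528, limma). In all, the inhibitor was called for 2 of 7 members in siCYLD cells (VEGFA higher, PGF lower), beside 22.4% of all genes (12.2% higher and 10.2% lower). It was called for 3 of 7 in siCtrl cells (VEGFA and VEGFC higher, NRP1 lower), beside 9.36% (5.02% higher and 4.34% lower). Over probe sets the counts were 2 of 17 in siCYLD cells, beside 16.4% of all, and 4 of 17 in siCtrl cells, beside 6.04%. The knockdown, inhibitor and interaction values share DMSO arrays.

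**Figure D3:**
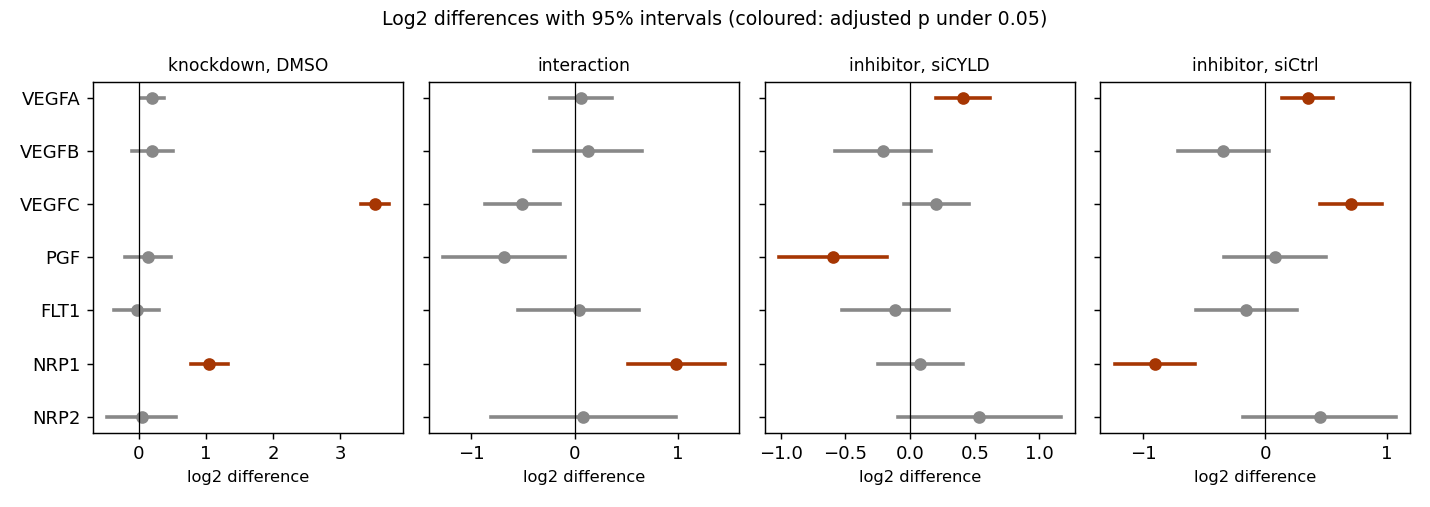
Log2 differences (points) with 95% intervals (lines) of the 7 members tested, for the knockdown with DMSO, the interaction and the inhibitor within each siRNA; each panel has its own horizontal scale and coloured points have an adjusted p under 0.05 (limma). VEGFC at 3.51 and NRP1 at 1.05 stand right of 0 for the knockdown, and VEGFA is right of 0 for the inhibitor in both siRNAs.

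The order of the 4 conditions differed among the members. VEGFC ran from siCtrl, the lowest, through siCtrl with inhibitor and siCYLD to siCYLD with inhibitor, and each neighbour was apart by more than the larger gap between duplicates (0.09 log2 units). VEGFA ran from siCtrl through siCYLD and siCtrl with inhibitor to siCYLD with inhibitor, and its neighbours were also apart (larger gap between duplicates 0.04). NRP1 ran from siCtrl with inhibitor through siCtrl to siCYLD and siCYLD with inhibitor, the last 2 being 0.08 apart and closer than the duplicates. For NRP2 the inhibitor conditions were the upper 2 and the DMSO conditions the lower 2, and only the step between them exceeded the duplicates. For VEGFB only siCtrl with inhibitor, the lowest, was apart from its neighbour. For PGF no neighbours were apart, and for FLT1, whose 4 condition means spanned 0.15 log2 units, only the step of 0.11 between the inhibitor and the DMSO conditions exceeded the duplicates.

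The genes whose values over the 6 arrays were most like those of VEGFC were NFKBIA, L1CAM, NIPAL4, STEAP3 and TMEM132A. They were taken by Pearson correlation among 2547 genes whose condition means spanned at least 1 log2 unit, and their r was 0.994 to 0.997. With 6 arrays in 4 conditions a high r mostly reflects the siRNA contrast that these genes share, so it is a description. NFKBIA, which encodes the NF-κB inhibitor IκBα, read 10173 in siCYLD with inhibitor, 4475 in siCtrl with inhibitor, 9161 and 9002 in siCYLD and 3797 and 3945 in siCtrl. L1CAM, an adhesion molecule that binds neuropilin-1, read 4825 in siCYLD with inhibitor, 998 in siCtrl with inhibitor, 3685 and 3631 in siCYLD and 576 and 606 in siCtrl. As with VEGFC, both were a little higher with inhibitor than with DMSO within each siRNA.

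NRP1 was most like SLC6A19, an amino acid transporter gene whose signals were at most 87.6, ENTPD2, an ectonucleotidase gene, and MT1HL1 (r of 0.990 to 0.994). ENTPD2 read 705 in siCYLD with inhibitor, 252 in siCtrl with inhibitor, 802 and 687 in siCYLD and 406 and 452 in siCtrl. VEGFA was most like SLC25A30, TGFB2, which encodes a TGF-β ligand, and NOG, which encodes the BMP antagonist noggin (r of 0.996 to 0.999). TGFB2 read 2144 in siCYLD with inhibitor, 1309 in siCtrl with inhibitor, 923 and 932 in siCYLD and 636 and 595 in siCtrl. NRP2 was most like MYRF-AS1, the integrin gene ITGB8 and MAMLD1 (0.979 to 0.989), VEGFB was most like ZBTB46, DNAJA4 and FOXN3 (0.972 to 0.985), and PGF was most like NAPA-AS1, CCDC152 and KCNIP4 (0.918 to 0.969).

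**Figure D4:**
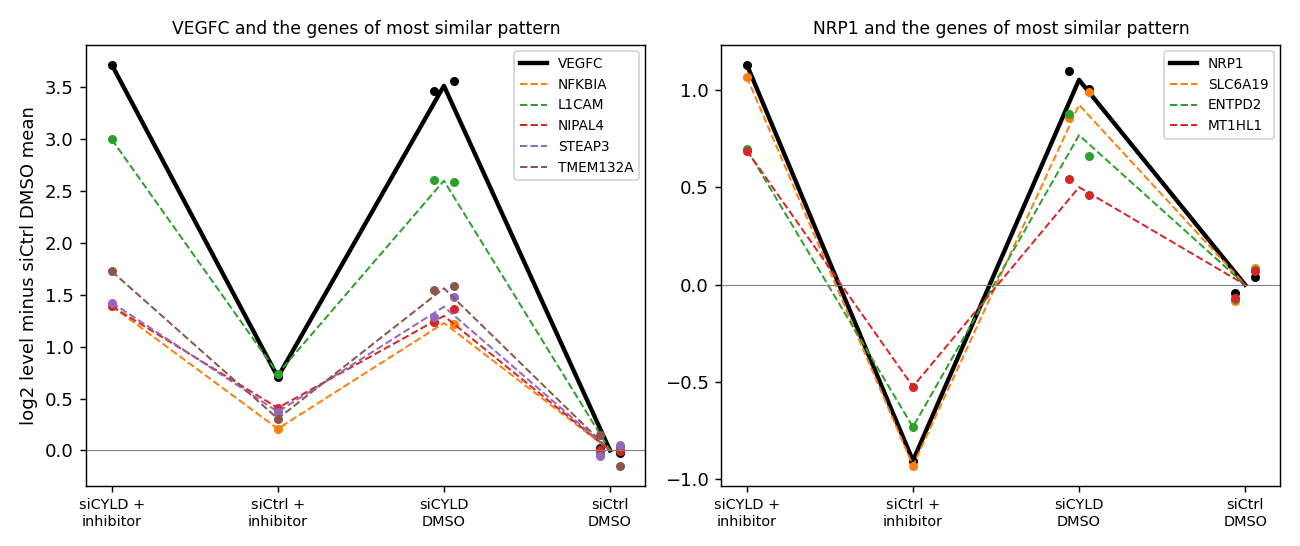
Log2 level of VEGFC (left) and NRP1 (right), solid lines, and of the genes of most similar pattern, dashed lines, as differences from the mean of the siCtrl arrays with DMSO; points are arrays and lines join condition means. VEGFC and L1CAM are high in the siCYLD conditions, and the NRP1 condition mean is below 0 in siCtrl with inhibitor.

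Genes that process or bind VEGF ligands outside the cell moved in both directions with the knockdown. Of 14 tested, 4 were higher and 1 lower, with a median difference of 0.01, beside 1227 higher and 1530 lower of 12935 genes and a median of -0.04. PLAU, the urokinase gene, read 26417 in siCYLD with inhibitor, 12730 in siCtrl with inhibitor, 19054 and 17200 in siCYLD and 6865 and 6225 in siCtrl, a rise of 1.47 ± 0.09 (adjusted p = 2.6e-07, limma). PCSK7, a proprotein convertase of the family that cuts VEGFC, rose by 0.63 ± 0.14 (adjusted p = 0.00502), and the perlecan gene HSPG2 by 0.48 ± 0.13 (adjusted p = 0.0217, limma).

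CCBE1, which encodes a secreted cofactor of VEGFC processing, was the 1 lower gene. It read 1037 in siCYLD with inhibitor, 789 in siCtrl with inhibitor, 210 and 265 in siCYLD and 566 and 716 in siCtrl. The siCYLD arrays with DMSO were the lowest, and the siCYLD array with inhibitor was the highest. The knockdown difference was -1.37 ± 0.16 (adjusted p = 5.8e-05) and the interaction 1.76 ± 0.28 (adjusted p = 0.00622, limma). The ligand and this cofactor thus differed from siCtrl in opposite directions with DMSO, at 3.51 for VEGFC and -1.37 for CCBE1, whereas in the inhibitor pair the CCBE1 difference was 0.39. THBS1, which encodes thrombospondin 1, an antagonist of angiogenesis, had the list's other interaction, -1.57 ± 0.15 (adjusted p = 0.000254, limma). It read 4749 in siCYLD with inhibitor, 15112 in siCtrl with inhibitor, 7868 and 7547 in siCYLD and 8578 and 7865 in siCtrl. For the interaction 1 of 14 was thus called higher and 1 lower, beside 0.982% higher and 0.688% lower of all genes.

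With the inhibitor across both siRNAs, 5 genes of this list were higher and 3 lower, beside 11.2% higher and 8.82% lower of all genes. CCBE1 (1.18 ± 0.30, adjusted p = 0.0204), PLAT (1.06 ± 0.17, adjusted p = 0.0023) and PLAU (0.75 ± 0.10, adjusted p = 0.000956) had the largest rises. The CCBE1 value averages unlike differences, 2.06 in siCYLD cells and 0.30 in siCtrl cells. CCN2, whose product binds VEGFA, fell by 1.61 ± 0.17 (adjusted p = 0.000249), and the convertase genes FURIN and PCSK7 fell by 0.71 ± 0.16 (adjusted p = 0.011) and 0.65 ± 0.13 (adjusted p = 0.0063, limma). FURIN read 491 in siCYLD with inhibitor, 617 in siCtrl with inhibitor, 892 and 1147 in siCYLD and 834 and 813 in siCtrl.

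Semaphorin ligands and plexin or adhesion partners of the neuropilins were called higher for 6 of 12 tested with the knockdown and lower for 0 by limma (0 lower also at an unadjusted p under 0.05), beside 9.49% higher and 11.8% lower of all genes. This list, like the other gene lists, was chosen with earlier results of these data known, so its counts are a description. The median difference of the 12 genes was 0.34, beside -0.04 for all genes. In the fit without both arrays of conflicting labels 2 of 12 were higher, beside 463 higher and 500 lower of 13191 genes. L1CAM rose by 2.60 ± 0.11 (adjusted p = 4.7e-09). SEMA3C, a secreted neuropilin ligand, read 1890 in siCYLD with inhibitor, 1330 in siCtrl with inhibitor, 5027 and 4667 in siCYLD and 2590 and 2370 in siCtrl, a rise of 0.96 ± 0.10 (adjusted p = 2.3e-05, limma). The integrin gene ITGAV rose by 0.84 ± 0.10 (adjusted p = 6.2e-05, limma). PLXND1, a plexin gene, read 1199 in siCYLD with inhibitor, 834 in siCtrl with inhibitor, 1912 and 1789 in siCYLD and 1145 and 968 in siCtrl.

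Across both siRNAs the inhibitor was called higher for 2 and lower for 5 of the same 12 genes, beside 11.2% higher and 8.82% lower of all genes. SEMA3C fell by 1.12 ± 0.12 (adjusted p = 0.00023), ITGAV by 0.52 ± 0.14 (adjusted p = 0.0245) and PLXND1 by 0.48 ± 0.12 (adjusted p = 0.0196, limma). L1CAM rose by 0.57 ± 0.11 (adjusted p = 0.00596), and MET, the receptor gene for hepatocyte growth factor, by 0.55 ± 0.11 (adjusted p = 0.00803, limma). None of the 12 was called for the interaction by limma, and at an unadjusted p under 0.05 there were 2 higher and 3 lower.

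**Figure D5:**
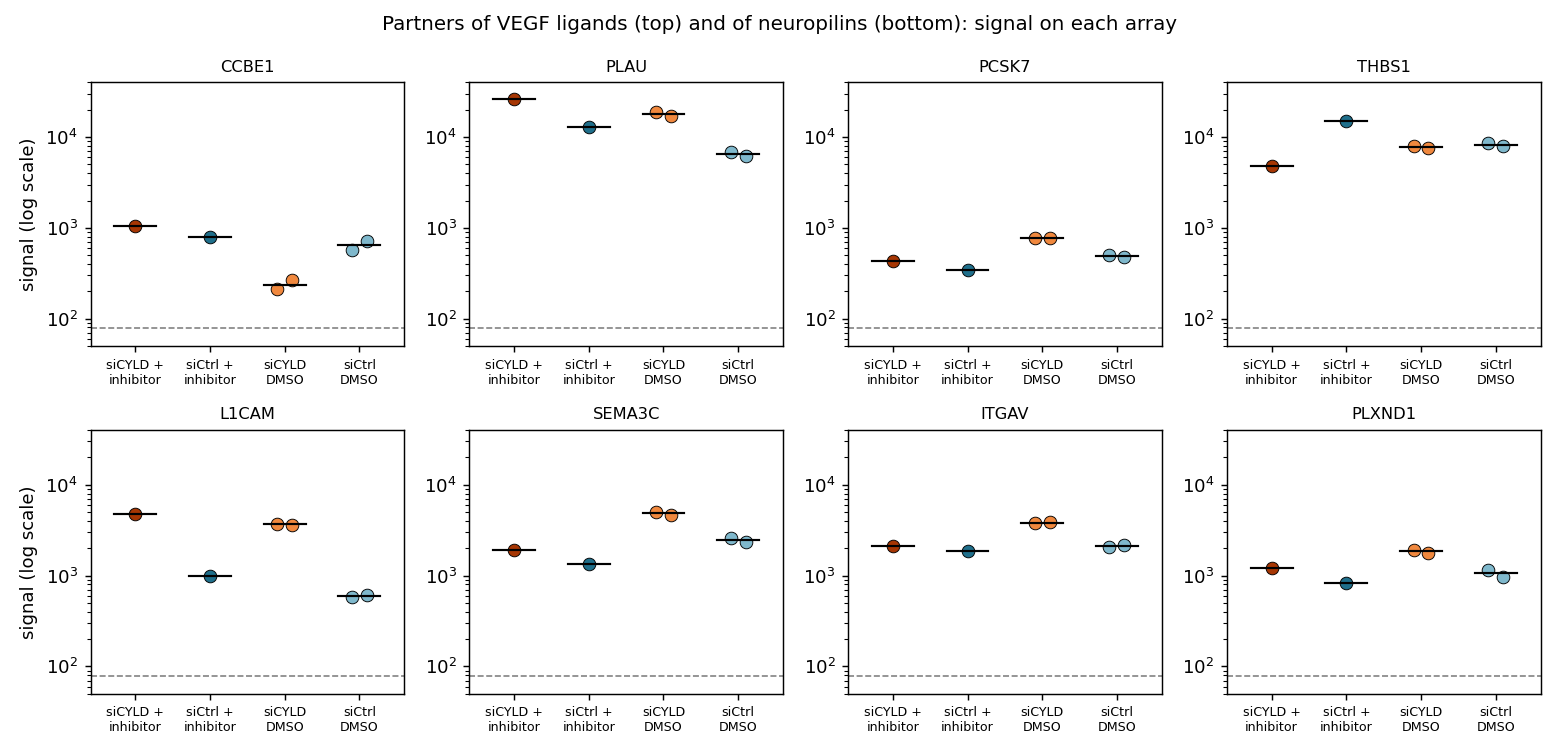
Signal (log axis) of 4 partners of VEGF ligands (top) and 4 partners of neuropilins (bottom) on each array, by condition: points are arrays, bars are condition means and the dashed line is the filter at 79.3. CCBE1 is lowest in the siCYLD arrays with DMSO, and L1CAM is high in all 3 siCYLD arrays.

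Intracellular effectors of VEGF receptors, most of them shared with other receptor pathways, were higher for 8 and lower for 2 of 34 tested with the knockdown, beside 9.49% higher and 11.8% lower of all genes, with a median of 0.11. SPHK1, the sphingosine kinase gene, read 697 in siCYLD with inhibitor, 387 in siCtrl with inhibitor, 1570 and 1768 in siCYLD and 607 and 606 in siCtrl, a rise of 1.43 ± 0.13 (adjusted p = 4.4e-06, limma). SH2D2A, the gene of an adaptor that binds KDR, rose by 0.72 ± 0.16 (adjusted p = 0.00715), and the focal adhesion gene PXN by 0.68 ± 0.09 (adjusted p = 0.000101). NOS3, the endothelial nitric oxide synthase gene, fell by 1.12 ± 0.18 (adjusted p = 0.000616, limma), reading 77.3 in siCYLD with inhibitor, 286 in siCtrl with inhibitor, 219 and 249 in siCYLD and 542 and 509 in siCtrl. The kinase gene FYN fell by 0.34 ± 0.10 (adjusted p = 0.0283, limma).

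The inhibitor across both siRNAs was called higher for 2 and lower for 7 of these 34 genes, beside 11.2% higher and 8.82% lower of all genes. NOS3 fell by 1.13 ± 0.18 (adjusted p = 0.00194), SPHK1 by 0.93 ± 0.15 (adjusted p = 0.00195) and RCAN1, a calcineurin inhibitor gene, by 0.80 ± 0.18 (adjusted p = 0.011, limma). HRAS and SHB rose by 0.37 ± 0.09 (adjusted p = 0.0192) and 0.37 ± 0.10 (adjusted p = 0.0221, limma).

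Hypoxia-inducible factors are the best known inducers of VEGFA. With the knockdown 3 of 25 genes of that pathway and its targets were higher and 4 lower, close to the 9.49% higher and 11.8% lower of all genes, with a median of -0.06. The glycolytic regulator genes PFKFB4 and PFKFB3 rose by 1.54 ± 0.17 (adjusted p = 2.4e-05) and 0.73 ± 0.15 (adjusted p = 0.00313), and NDRG1 by 1.34 ± 0.12 (adjusted p = 5.4e-06, limma). ADM, the adrenomedullin gene, fell by 1.04 ± 0.11 (adjusted p = 1.4e-05), INSIG2 by 0.57 ± 0.14 (adjusted p = 0.0103) and PDK1 by 0.49 ± 0.11 (adjusted p = 0.00769, limma).

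With the inhibitor across both siRNAs 2 of the 25 were higher and 3 lower, close to the 11.2% higher and 8.82% lower of all genes. ADM rose by 1.16 ± 0.13 (adjusted p = 0.000249) and LDHA by 0.45 ± 0.11 (adjusted p = 0.0191), while PFKFB4 fell by 1.25 ± 0.27 (adjusted p = 0.00939), NDRG1 by 0.85 ± 0.18 (adjusted p = 0.00991) and BNIP3L by 0.57 ± 0.13 (adjusted p = 0.0139, limma). PFKFB4, PFKFB3 and NDRG1 were called lower for the interaction, at -1.47, -1.30 and -0.96. These were 3 of 25, with 0 higher, beside 0.688% lower and 0.982% higher of all genes. The inhibitor differences of PFKFB4 were -1.98 in siCYLD cells and -0.51 in siCtrl cells, and those of NDRG1 -1.33 and -0.37. VEGFA was at 0.20 for the knockdown, not called, and 0.38 for the inhibitor.

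In the additive fit without both arrays of conflicting labels, which was chosen after seeing the data and weighs the inhibitor pair more, the knockdown was called for VEGFC (3.27, adjusted p = 3.5e-09) and NRP1 (1.54, adjusted p = 0.000258, limma). It was called for 2 of 12 neuropilin partners (L1CAM and SEMA3C) and for 1 of 14 ligand partners higher and 1 lower. Of 34 effectors 1 was higher and 1 lower, and of 25 hypoxia genes 1 was higher and 1 lower. CCBE1 was at -0.33 and not called in that fit (adjusted p = 0.503), while PLAU, SPHK1, NOS3, NDRG1 and ADM kept their calls. The knockdown calls of PCSK7, HSPG2, ITGAV, SH2D2A, PXN, FYN, PFKFB4, PFKFB3, INSIG2 and PDK1 were lost as well. For the knockdown that fit called 463 genes higher and 500 lower of 13191. For the inhibitor, it called 784 genes higher and 473 lower of 13191. Called were 2 of 12 neuropilin partners higher and 1 lower, and 3 of 14 ligand partners higher and 3 lower. Of 34 effectors 6 were lower and 0 higher, and of 25 hypoxia genes 2 were higher and 2 lower (limma).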

How the data were processed

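RNA of SAS cells was measured on 6 Affymetrix arrays. The deposited values are MAS5 intensity values per probe set on a linear scale, per the submitters' processing notes, which give no version; each array's trimmed mean was 500.1. Arrays have no read depth, and their number limits the precision. The platform annotation gave 1 symbol to 41091 of 54675 probe sets, several to 1801 and none to 11721. An offset of 16.06, which is the 20th percentile of the signals, was added before log2. A probe set was kept if its highest condition mean exceeded the median of all log2 values (a signal of 79.3), and the kept probe set of highest mean represented each of 12935 genes. Differences on this scale understate changes of dim genes.

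Tests came from limma 3.58.1 (R 4.3.3) with its intensity trend, on 2 models: 4 condition means (2 residual degrees of freedom, 10.9 prior), and siRNA plus inhibitor for the inhibitor across both siRNAs (3 residual, 7.98 prior). Values in the inhibitor pair have no p. Figures were drawn with matplotlib 3.10.9. Members and gene lists were chosen with earlier results of these data known. Named were all members, the 3 largest called genes of each list in each direction, and the genes of most similar pattern. Of the other angiogenic genes, all that were called higher with the knockdown were named. The fits were run on simulated data with a common spread for all genes and changes only in the siCYLD arrays with DMSO. Recovery of inhibitor or interaction effects was not checked there. Alternatives changed the offset, scaling, filter, probe set, moderation, arrays and grouping. The same-numbered arrays are not said to be paired, and the correlation of their deviations was 0.045.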

Additional observations from a re-analysis of the deposited data

Results flagged for a closer look

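The knockdown difference of NRP1 depended on the inhibitor by a test of the difference itself, with an interaction of 0.98 on the log2 scale (adjusted p = 0.0382, limma). The NRP1 signal was 1370 in siCYLD with inhibitor and 322 in siCtrl with inhibitor, and it averaged 1298 in siCYLD and 617 in siCtrl with DMSO. Over 13 alternatives the interaction ranged from 0.57 to 1.03. It was not called with no filter (adjusted p = 0.15), with the mean of probe sets (adjusted p = 0.604) or without the intensity trend (adjusted p = 0.222, limma). Of all genes, these settings called 33 of 19775, 95 of 12935 and 0 of 12935 for the interaction. Each inhibitor condition was 1 array, so the test takes its spread from the duplicates of the DMSO conditions. In the fit over probe sets the interaction was not called (adjusted p = 0.0639), and the second NRP1 probe set gave 0.16 (adjusted p = 0.961, limma). No group held enough arrays for a check of single arrays against their group.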

How the results depend on the processing

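The knockdown calls of VEGFC (3.27 to 3.56) and NRP1 (1.0 to 1.54) held in 17 alternatives grouped by title. Grouped by source name, which puts 1 array of each title in each group, 0 members and 0 of 12900 genes were called, with VEGFC at 0.019 and NRP1 at -0.0038, FLT1 at 0.011, PGF at -0.31 and VEGFB at -0.056. With the replicate number as a block, VEGFA was also called for the knockdown (0.20, adjusted p = 0.0441, limma), as in the additive model (0.22, adjusted p = 0.0466); the labels do not say that numbers pair the arrays, and the block changed no other member's call. Members called for the interaction numbered 0 with no filter, the mean of probe sets or no intensity trend, and 1 to 2 with single arrays left out. Those called for the inhibitor in siCYLD cells numbered 0 under the same 3 settings, 1 with the robust moderation and 1 to 2 with arrays left out; in siCtrl cells, 1 with the mean of probe sets and 0 without the trend. For the inhibitor across both siRNAs they numbered 0 without the trend or without both arrays of conflicting labels, and 1 to 3 with single arrays left out. Counts over all genes changed with these settings too. The interaction was called for 33 of 19775 genes with no filter, 95 of 12935 with the mean of probe sets and 0 without the trend. For the inhibitor in siCYLD cells the counts were 1819, 2229 and 1055 in the same order. In siCtrl cells they were 822 with the mean of probe sets and 35 without the trend. Across both siRNAs the count was 1087 without the trend. The cause was not tested. Apart from NRP1 under the source names, signs turned for values that were not called: FLT1 knockdown with quantile normalization (0.0028), the mean of probe sets (0.091), no _x_at or _s_at probe sets (0.21) and without siCtrl or siCYLD replicate 2 (0.017 and 0.0056; range with arrays left out -0.073 to 0.017); PGF knockdown without siCYLD replicate 1 (-0.16, range to 0.45), in the additive model (-0.083) and in that model without both arrays of conflicting labels (-0.35); NRP2 knockdown without siCtrl or siCYLD replicate 2 (-0.00075 and -0.052, range to 0.14); the interactions of VEGFA with quantile normalization (-0.00023), NRP2 with the mean of probe sets (-0.17) and without siCYLD replicate 1 (-0.011, range to 0.18), VEGFB without siCtrl replicate 1 (-0.0039, range to 0.26) and FLT1 without siCtrl replicate 2 (-0.0052, range to 0.085); and the inhibitor across both siRNAs for NRP1 with the mean of probe sets (0.030) and without the siCtrl inhibitor array (0.078, range from -0.90), and for PGF without the siCYLD inhibitor array (0.083, range from -0.60). The 4-condition model could not be fitted without both arrays of conflicting labels. KDR and FLT4, whose signals were not above the filter, give no direction.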

Other observations

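Of 19 tested genes of other angiogenic growth factors and their receptors, 9 were higher and 5 lower with the knockdown, beside 9.49% and 11.8% of all genes. Of the 9, TIE1, ANGPTL4 and CXCL8 passed the filter only through siCYLD conditions and were dim in siCtrl, so their calls are set by the filter and their values are a description. The rest of the 9 were above the filter level on every array. They were FGF2 (1.02, adjusted p = 4.0e-06), PDGFB (0.94, adjusted p = 0.000132) and ENG (0.81, adjusted p = 0.00445, limma). JAG1 (0.67, adjusted p = 0.00224), EFNB2 (0.56, adjusted p = 0.00464) and EPHB4 (0.46, adjusted p = 0.013, limma) rose less. TIE1, an orphan receptor gene of endothelium, read 15.4 in siCYLD with inhibitor, 11.9 in siCtrl with inhibitor, 149 and 124 in siCYLD and 2.10 and 2.10 in siCtrl. ANGPTL4 read 46.8 in siCYLD with inhibitor, 11.6 in siCtrl with inhibitor, 189 and 184 in siCYLD and 17.7 and 35.9 in siCtrl. The chemokine gene CXCL8 read 388 in siCYLD with inhibitor, 41.8 in siCtrl with inhibitor, 277 and 209 in siCYLD and 60.2 and 38.1 in siCtrl. FGFR2 read 1714 in siCYLD with inhibitor, 4271 in siCtrl with inhibitor, 1178 and 1239 in siCYLD and 4138 and 4222 in siCtrl (-1.78 ± 0.10, adjusted p = 1.6e-07, limma). APLN, the apelin gene, fell by 1.26 ± 0.24 (adjusted p = 0.0021) and FGFR3 by 0.56 ± 0.12 (adjusted p = 0.00513, limma). Without both arrays of conflicting labels, in the additive fit, FGFR2 and FGFR3 were called, and APLN was not. In that fit 1 of 20 genes of the list was higher and 3 lower, beside 463 higher and 500 lower of 13191 genes.

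With the inhibitor across both siRNAs 5 of these 19 genes were higher and 3 lower, beside 11.2% higher and 8.82% lower of all genes. EDN1, the endothelin gene, read 563 in siCYLD with inhibitor, 82.9 in siCtrl with inhibitor, 90.6 and 49.1 in siCYLD and 61.0 and 70.7 in siCtrl. It passed the filter only through the inhibitor conditions, so its calls for the inhibitor and the interaction are set by the filter and its values are a description. FGFBP1 rose by 1.13 ± 0.20 (adjusted p = 0.00334) and the Notch ligand gene JAG1 by 1.09 ± 0.15 (adjusted p = 0.000873). FGF2 read 3725 in siCYLD with inhibitor, 3593 in siCtrl with inhibitor, 10143 and 10470 in siCYLD and 5013 and 5147 in siCtrl, with an interaction of -0.97 ± 0.15 (adjusted p = 0.00605, limma). FGF2, PDGFC and PDGFA fell by 0.98, 0.53 and 0.30 with the inhibitor (adjusted p of 0.00303, 0.00491 and 0.0427, limma).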
